A study of Homo sapiens with 30 samples.

Results

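FGFR3, WHSC1, LETM1 and TACC3 are neighbours in band 4p16 of human chromosome 4, the band that is joined to the immunoglobulin heavy-chain locus in myelomas with the t(4;14) translocation. The 4 genes were taken by their symbols from 25680 gene symbols, and each was represented by the RefSeq transcript row with the highest mean count. Together they have 11 of the 51780 rows: 6 for WHSC1, 3 for FGFR3 and 1 each for LETM1 and TACC3. The RNA came from OPM2 and H929, human multiple myeloma lines that both carry t(4;14). The groups were OPM2 with dBRD9-A, OPM2 with DMSO, H929 with dBRD9-A and H929 with DMSO, with 3 libraries each. The compound was given at 100 nM for 24 h and DMSO, its solvent, served as the control. dBRD9-A directs BRD9, a bromodomain protein that belongs to a non-canonical form of the BAF chromatin remodeller, to the proteasome. A difference between H929 and OPM2 is one between 2 established lines, and 18 further samples of the 30 listed were not analysed here.

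From the end of 4p the genes lie in the order TACC3, FGFR3, LETM1, WHSC1. The t(4;14) translocation breaks chromosome 4 near the start of WHSC1 or within its first exons. FGFR3, a receptor tyrosine kinase for fibroblast growth factors, then moves to the derivative chromosome 14, and WHSC1 stays on the derivative chromosome 4, both joined to immunoglobulin enhancers. WHSC1, also named NSD2 or MMSET, is a methyltransferase for lysine 36 of histone H3 and is over-expressed in t(4;14) myelomas, whereas FGFR3 is silent in some of them. LETM1, between FGFR3 and WHSC1, encodes an ion exchanger of the inner mitochondrial membrane. TACC3, next to FGFR3 on its other side, encodes a protein that stabilises spindle microtubules in mitosis.

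The promoters are shown because FGFR3 and WHSC1 are the genes that this translocation joins to immunoglobulin enhancers. A break within the first exons of WHSC1 would part the window printed here from the rest of the gene. Where the break lies in OPM2 and H929 was not tested. RefSeq entries were found for 3 of the 4 genes, from 250 bases before to 50 bases after the annotated start, all on the + strand of GRCh38.p14, written 5′ to 3′. The windows are chr4:1793043-1793342 for FGFR3, chr4:1871143-1871442 for WHSC1 (listed as NSD2) and chr4:1720381-1720680 for TACC3. Capitals mark a GC box (GGGCGG, or CCGCCC on the other strand) or a CCAAT box (CCAAT or ATTGG).
FGFR3: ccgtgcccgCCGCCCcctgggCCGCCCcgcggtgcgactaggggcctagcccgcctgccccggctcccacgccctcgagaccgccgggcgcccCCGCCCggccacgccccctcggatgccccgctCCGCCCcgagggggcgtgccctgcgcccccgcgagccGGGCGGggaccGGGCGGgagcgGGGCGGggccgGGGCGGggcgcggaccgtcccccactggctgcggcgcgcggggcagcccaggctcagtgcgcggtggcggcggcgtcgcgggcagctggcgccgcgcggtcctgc
WHSC1: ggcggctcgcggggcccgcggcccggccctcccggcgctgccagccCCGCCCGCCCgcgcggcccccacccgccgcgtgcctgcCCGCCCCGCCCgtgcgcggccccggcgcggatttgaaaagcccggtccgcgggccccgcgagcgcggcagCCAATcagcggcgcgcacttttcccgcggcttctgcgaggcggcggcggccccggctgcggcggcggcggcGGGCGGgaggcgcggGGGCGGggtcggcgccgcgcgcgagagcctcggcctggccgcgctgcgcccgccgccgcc
TACC3: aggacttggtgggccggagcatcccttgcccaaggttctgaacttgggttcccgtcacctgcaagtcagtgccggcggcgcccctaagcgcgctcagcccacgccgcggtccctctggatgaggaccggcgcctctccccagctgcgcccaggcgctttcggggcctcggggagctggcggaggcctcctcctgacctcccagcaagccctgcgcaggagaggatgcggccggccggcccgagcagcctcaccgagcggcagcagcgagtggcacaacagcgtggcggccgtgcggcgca
The FGFR3 window has 8 GC boxes, no CCAAT box and 51 CpG dinucleotides at 86.3% G and C. The WHSC1 window has 6 GC boxes, 1 CCAAT box and 63 CpG at 86.7% G and C, and its boxes overlap or touch within the runs CCGCCCGCCC and CCGCCCCGCCC. The TACC3 window has none of these boxes and 30 CpG at 72.0% G and C. Of 35116 RefSeq promoters of the same length, 45.0% have at least 1 GC box and 34.6% a CCAAT box, and 99.9% have a lower G and C content than either the FGFR3 or the WHSC1 window. The E box CACGTG, found in 7.26% of promoters, is in none of the 3 windows. LETM1 is named only.

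The libraries held 42895389 to 76600945 counts over the representative rows, except OPM2 dBRD9-A replicate 2 with 24524193. That library stood apart. Over 11350 genes, its log2 values departed from those of its group mates with an SD of 0.90, where the 9 libraries of the other groups had 0.15 to 0.26. The departures followed the GC content of the transcripts (Spearman rho -0.67 across genes), and the FGFR3 transcript has 62.1% G and C. A GC dependence of like rank occurred in other libraries at a smaller spread, with rho of -0.57 in H929 dBRD9-A replicate 1 and 0.62 in replicate 2. Results in OPM2 are therefore also given without OPM2 dBRD9-A replicate 2. All 12 libraries share 1 spread per gene in the fit, so that library also enters the SE of the comparisons in H929. Both lines had high levels of plasma cell markers such as SDC1, XBP1 and IRF4, while FCRL5 averaged 0.405 to 4.54 CPM over the groups. The B cell marker MS4A1, the T cell marker CD3D and the epithelial marker EPCAM averaged at most 0.0221 CPM in every group. Other markers of these lists were higher. In H929, KRT18 averaged 13.0 CPM with dBRD9-A and 6.89 CPM with DMSO, KRT8 5.83 and 2.67 CPM, and BLK 2.39 and 2.78 CPM. In OPM2 with DMSO, CR2 averaged 2.51 CPM. VIM, of the stromal or epithelial list, averaged 1331 to 2078 CPM over the groups. The summed level of 5 T cell markers was 36.7 to 39.7 CPM in H929 with dBRD9-A, 23.3 to 25.6 CPM in H929 with DMSO, and at most 1.35 CPM in OPM2. Nearly all of it was CD3E, while CD3D and CD3G averaged at most 0.0314 CPM. The summed level of 10 plasma cell markers was 6518 to 7590.2 CPM in OPM2 with dBRD9-A, against 11770.0 to 14098 CPM in OPM2 with DMSO. In H929 it was 9193 to 10414 CPM with dBRD9-A, against 15587 to 16887 CPM with DMSO. Most of this fall was in IGJ, the immunoglobulin J chain gene, which averaged 2436 CPM with dBRD9-A and 7146 CPM with DMSO in OPM2, and 4390.4 CPM with dBRD9-A and 9643 CPM with DMSO in H929. Without IGJ the sum was 3822 to 5222 CPM in OPM2 with dBRD9-A, against 5249 to 6037 CPM with DMSO, and in H929 5228 to 5480.2 CPM with dBRD9-A, against 6128 to 6800.4 CPM with DMSO. Of the 10 markers, 3 fell and 0 rose in each line. Over all genes tested, 7.34% were called lower in OPM2 and 5.67% in H929, and 10.1% and 7.33% higher. The part of these marker levels in the results for the 4 genes was not tested, and in bulk RNA fewer cells of a type and less RNA per cell cannot be told apart.

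FGFR3 (NM_001163213) was lower with dBRD9-A in both lines and far lower in H929 than in OPM2. In OPM2, replicates 1, 2 and 3 had 779.6, 313 and 1049 CPM (counts brought to a common library size with TMM factors) with dBRD9-A, against 2085, 2069 and 2184 CPM with DMSO. Every treated library was below every DMSO library, and replicate 2, the library that stood apart, had 0.343 of the mean of its mates. The mates alone, at a mean of 914 CPM, had 0.433 of the DMSO mean. The log2 fold change was -1.56 ± 0.31 (SE; 95% interval -2.23 to -0.90), and edgeR's quasi-likelihood test gave 0.00553 as its p after Benjamini-Hochberg adjustment over all genes. Without replicate 2 it was -1.22, with an adjusted p of 3.64e-06. With only the OPM2 groups in the fit, the adjusted p was 0.0756 and the fold change was called no longer. The call held in 23 of 24 alternatives, among them removal of the GC trend. Over all 24 the log2 fold change ran from -1.96 to -1.15.

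In H929, FGFR3 had 32.6, 34.4 and 34.3 CPM with dBRD9-A, against 77.2, 87.9 and 90.1 CPM with DMSO. The groups did not overlap, and the spread within each was small, with a mean of 33.8 ± 0.998 CPM with dBRD9-A and 85.0 ± 6.91 CPM with DMSO (SD, n = 3 each). The log2 fold change was -1.33 ± 0.31 (SE; 95% interval -2.00 to -0.67; adjusted p = 0.0144, edgeR). This call was lost without any 1 of the H929 dBRD9-A libraries and without H929 DMSO replicate 2 or 3, at fold changes of -1.32 to -1.25 and adjusted p of 0.0538 to 0.0816. Each of these fits still held OPM2 dBRD9-A replicate 2, which enters the shared spread. The call was kept in 19 of 24 alternatives, among them the fit without that library. The fold changes in H929 and OPM2 differed by 0.23 ± 0.42 (SE, H929 minus OPM2; 95% interval -0.69 to 1.15; adjusted p = 0.885), so a difference of response was not detected within this wide interval. Without OPM2 dBRD9-A replicate 2 the difference was -0.0803.

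In DMSO, FGFR3 averaged 85.0 ± 6.91 CPM in H929 and 2112 ± 62.5 CPM in OPM2, which is 24.8-fold higher in OPM2. The log2 fold change, H929 against OPM2, was -4.63 ± 0.35 (SE; adjusted p = 2.03e-07, edgeR). Per length of transcript, FGFR3 held rank 4080 of all genes in H929 with DMSO and rank 134 in OPM2 with DMSO. Its share of the counts of all representative rows was 0.00796% in H929 with DMSO and 0.215% in OPM2 with DMSO. With dBRD9-A the means were 33.8 CPM in H929 and 714 ± 372 CPM in OPM2.

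**Figure D1:**
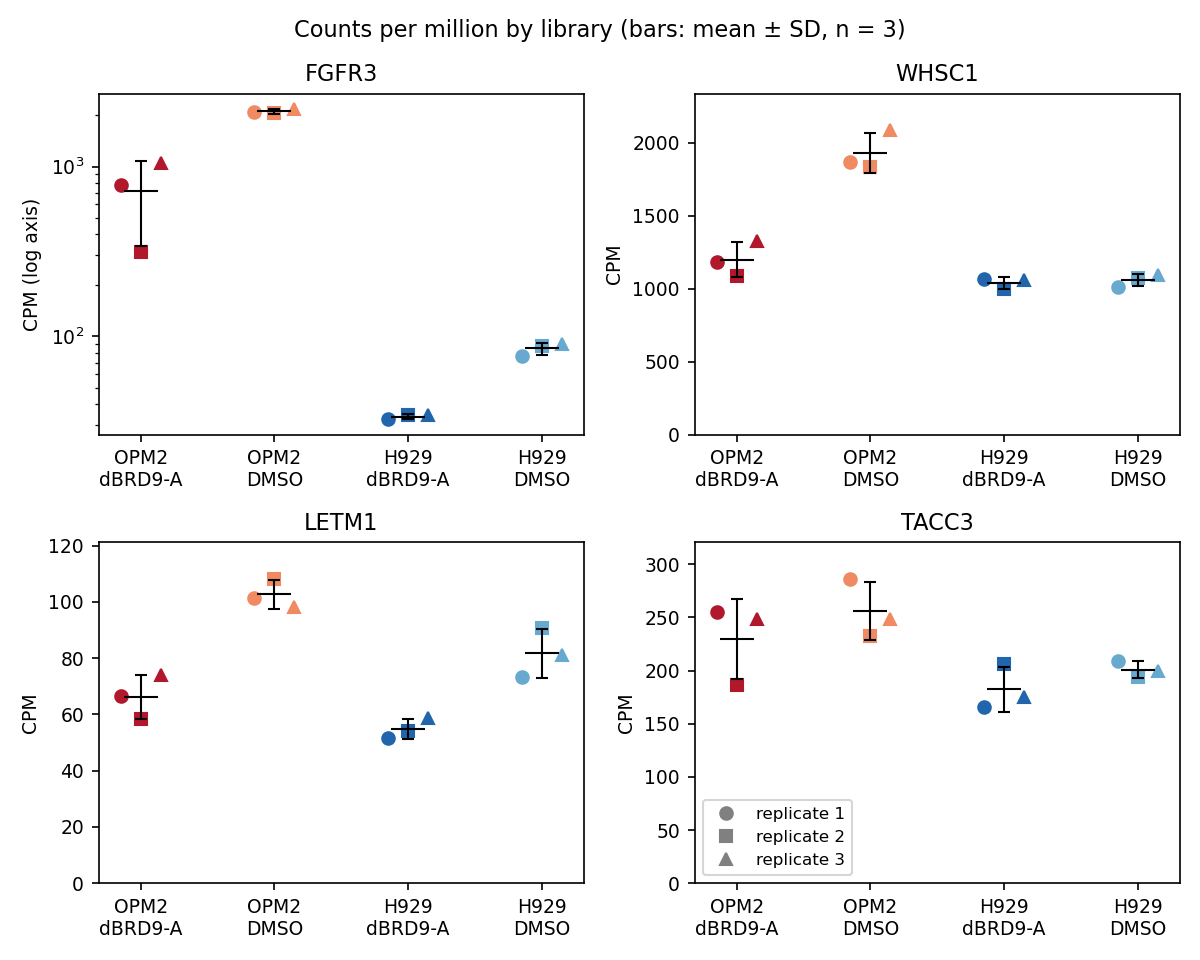
CPM of the 4 genes in each library, with replicate numbers as marker shapes and the mean ± SD of 3 libraries as bars; the FGFR3 axis is logarithmic and the others start at 0. FGFR3 is lower with dBRD9-A in both lines, WHSC1 is lower in OPM2 and its groups overlap in H929, LETM1 is lower in both lines, and the TACC3 groups overlap within each line.

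WHSC1 (NM_133330) was lower with dBRD9-A in OPM2, and in H929 its groups overlapped. In OPM2 it had 1185, 1088 and 1326 CPM with dBRD9-A, against 1871, 1831 and 2087 CPM with DMSO. Every treated library was below every DMSO library, and replicate 2 had 0.867 of the mean of its mates. The log2 fold change was -0.69 ± 0.11 (SE; 95% interval -0.92 to -0.45; adjusted p = 0.00164, edgeR), and -0.63 without replicate 2.

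In H929, WHSC1 had 1065, 995 and 1060 CPM with dBRD9-A, against 1013, 1071 and 1096 CPM with DMSO. The log2 fold change was -0.03 ± 0.11 (SE; adjusted p = 0.911), and its 95% interval, -0.26 to 0.21, does not reach the value of OPM2. The difference of the responses, H929 minus OPM2, was 0.66 ± 0.15 (SE; 95% interval 0.33 to 0.99) with an unadjusted p of 0.000957 and an adjusted p of 0.107, so it was not called over all genes. Of all genes, 0.579% were called in that test, and none of the 4 genes here was. With DESeq2, which called 2.27% of all genes, 1 of the 4 was called, namely WHSC1. It was also the only 1 of the 4 at an unadjusted p under 0.05, where the share of all genes is not given here. Without OPM2 dBRD9-A replicate 2 the WHSC1 difference was 0.64 with an adjusted p of 0.00933, in a fit that called 3.04% of all genes, and it was also called once a trend with GC content was removed. In 18 of the 23 alternatives run, the WHSC1 difference stayed uncalled, as in the main fit, and the adjusted p reached 0.307.

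In DMSO, WHSC1 averaged 1060.1 ± 42.6 CPM in H929 and 1930 ± 138 CPM in OPM2, a log2 fold change of -0.86 ± 0.11 (SE; adjusted p = 1.96e-05, edgeR). With dBRD9-A the means were 1039.6 ± 39.0 CPM in H929 and 1199.7 ± 119 CPM in OPM2. Per length of transcript, WHSC1 held rank 413 with dBRD9-A and rank 253 with DMSO in OPM2, and rank 528 with dBRD9-A and rank 580 with DMSO in H929.

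The 6 WHSC1 rows fall into 4 long and 2 short ones. The long rows, NM_133330, NM_133331, NM_133335 and NM_001042424, have annotated models (GENCODE v29) of 1365 residues, and the short rows, NM_133334 and NM_007331, have models of 647 and 629 residues that end before the catalytic part of the protein. The counts of overlapping rows repeat each other, so rows share reads and their differences are descriptions. The long rows of a library differed by 5 to 35 counts, or 0.00824 to 0.0437%, although their lengths differ by up to 351 bases, which is 4.45% of the longest. At the mean depth over NM_133330, 3.28 to 20.4 counts per base, 351 bases would hold 1150 to 7158 counts. The models of NM_133330, NM_133331 and NM_133335 have 1 to 3 non-coding exons before the exon with the coding start, with 110 to 402 bases, and in all 12 libraries very few counts told these 3 rows apart. The model matched to NM_001042424 has 4251 bases where the row has 7572, so the exons of that row are not described. For comparison, the FGFR3 rows NM_001163213 and NM_022965, of 808 and 694 residues, differ by 342 bases or 7.97% of the length, and by 3.19 to 6.07% of the counts. Both FGFR3 models have 154 bases before the exon with the coding start. Their difference thus lies elsewhere in the transcript and is of another kind than that of the long WHSC1 rows.

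The short rows were a larger fraction of the long row in OPM2 with dBRD9-A than in any other group. The ratio of NM_133334 to NM_133330 was 0.564, 0.628 and 0.583 in OPM2 with dBRD9-A, against 0.498, 0.525 and 0.509 with DMSO. The means were 0.592 ± 0.033 with dBRD9-A and 0.511 ± 0.013 with DMSO (SD, n = 3 each). The groups did not overlap, the highest value was in replicate 2, and the two-sided exact permutation test gave p = 0.1, the smallest that 3 against 3 libraries allow. In H929 the ratio was 0.489, 0.430 and 0.466 with dBRD9-A, against 0.415, 0.435 and 0.443 with DMSO, and the groups overlapped (exact permutation p = 0.3). In DMSO the ratio was lower in H929 than in OPM2 without overlap, with a difference, H929 minus OPM2, of -0.0798 (exact permutation p = 0.1). NM_007331 gave 0.578 ± 0.034 with dBRD9-A and 0.496 ± 0.012 with DMSO in OPM2. In H929 it gave 0.458 ± 0.029 with the degrader and 0.425 ± 0.013 with its solvent.

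**Figure D2:**
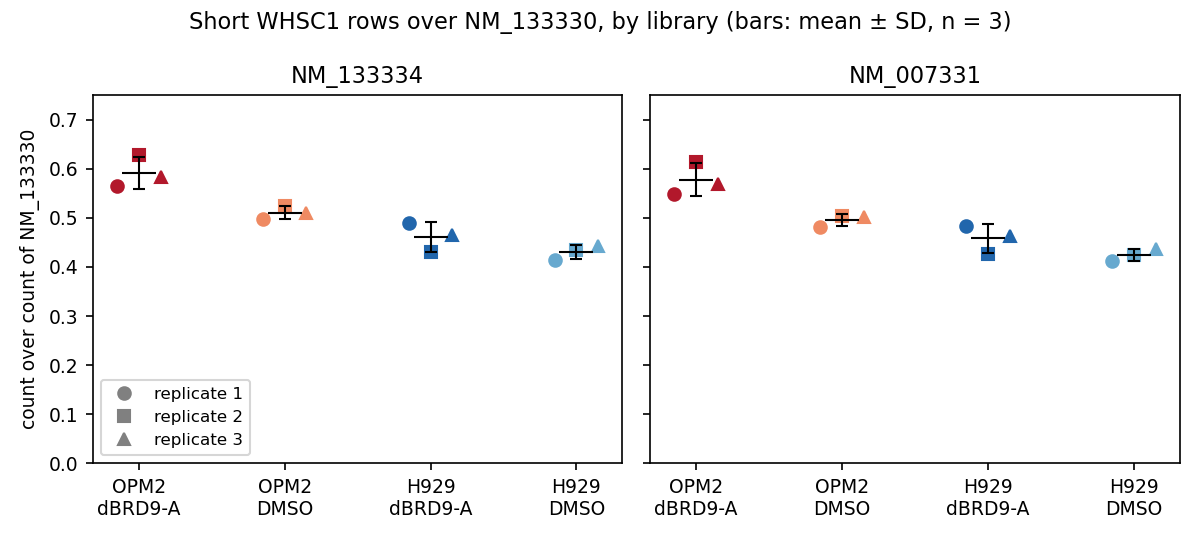
Count of each short WHSC1 row divided by the count of NM_133330, per library, with the mean ± SD of 3 libraries as bars. The OPM2 dBRD9-A libraries lie between 0.550 and 0.628 and all other libraries between 0.412 and 0.525.

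A fit over all 34900 rows tested compared the rows one by one. In OPM2, the 4 long rows fell with dBRD9-A by 0.70 on the log2 scale and the short rows NM_133334 and NM_007331 by 0.49 and 0.49 (adjusted p = 0.0128 and 0.0139, edgeR), so all 6 rows were called where 17.9% of all rows were. In H929 edgeR called 0 of the 6 WHSC1 rows, where 13.2% of all rows were called. None of the 6 had an unadjusted p under 0.05. The log2 fold changes were -0.02 for the long rows and 0.08 and 0.09 for the short ones. Between the lines in DMSO, where 61.3% of rows were called, the long rows were lower in H929 by a log2 fold change of -0.88 and the short rows by -1.12 and -1.10.

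LETM1 (NM_012318) was lower with dBRD9-A in both lines. In OPM2 it had 66.5, 58.4 and 74.0 CPM with dBRD9-A, against 101, 108 and 98.2 CPM with DMSO. In H929 it had 51.8, 54.0 and 58.6 CPM with dBRD9-A, against 73.3, 90.6 and 81.1 CPM with DMSO. In neither line did the groups overlap. The log2 fold change was -0.63 ± 0.12 in OPM2 (SE; adjusted p = 0.00468, edgeR) and -0.56 without OPM2 dBRD9-A replicate 2, and removing the GC trend brought it to -0.38, still called. In H929 it was -0.58 ± 0.12 (SE; adjusted p = 0.00878), a call lost without H929 dBRD9-A replicate 1 (-0.50, adjusted p = 0.0658) or without H929 DMSO replicate 2 (-0.47, adjusted p = 0.0714). The responses differed by 0.05 (95% interval -0.31 to 0.42, H929 minus OPM2; adjusted p = 0.938). In DMSO, LETM1 averaged 81.6 ± 8.70 CPM in H929 and 103 ± 5.12 CPM in OPM2, a log2 fold change of -0.33 ± 0.12 (SE; adjusted p = 0.0291).

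TACC3 (NM_006342) did not pass the test with dBRD9-A in either line. In OPM2 it had 255, 187 and 249 CPM with dBRD9-A, against 286, 233 and 249 CPM with DMSO, and the lowest value was in replicate 2. In H929 it had 166, 206 and 175 CPM with dBRD9-A, against 209, 194 and 199.8 CPM with DMSO, and the groups overlapped in both lines. The log2 fold changes were -0.15 ± 0.14 in OPM2 (SE; 95% interval -0.45 to 0.15; adjusted p = 0.468) and -0.14 ± 0.14 in H929 (SE; 95% interval -0.44 to 0.16; adjusted p = 0.565), and the OPM2 value was 0.11 once the GC trend was removed. In DMSO it averaged 201 ± 7.62 CPM in H929 and 256 ± 27.6 CPM in OPM2, a log2 fold change of -0.35 ± 0.14 (SE; adjusted p = 0.0444). Both calls between the lines lay near the threshold. For LETM1 the call was lost without OPM2 DMSO replicate 1 or 2 or H929 DMSO replicate 1 or 3 (-0.36 to -0.29, adjusted p of 0.0543 to 0.102), and for TACC3 without OPM2 DMSO replicate 1 or 3 or any H929 DMSO library (-0.41 to -0.26, adjusted p of 0.0562 to 0.179).

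Over the 4 genes, 3 fell with dBRD9-A in OPM2, where 17.4% of all 16408 genes tested were called and 7.34% were called lower and 10.1% higher. In H929, 2 of the 4 fell, where 13% of all genes were called and 5.67% were called lower and 7.33% higher. With OPM2 dBRD9-A replicate 2 left out, 3 fell in OPM2 and 2 in H929, in a fit that called 31.7% of all genes in OPM2 and 35.7% in H929. All 4 were lower in H929 than in OPM2 in DMSO, a comparison in which 60.2% of all genes were called, 27.5% lower and 32.6% higher. With a log2 fold change of at least 1 in size also required, FGFR3 alone of the 4 was called, as were 36.3% of all genes. The median log2 fold change of the 4 genes was -0.66 in OPM2, -0.36 in H929 and -0.61 between the lines, beside medians of 0.03, -0.00194 and 0.05 over all genes tested. The comparisons share their DMSO libraries, so these counts are not independent of each other.

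**Figure D3:**
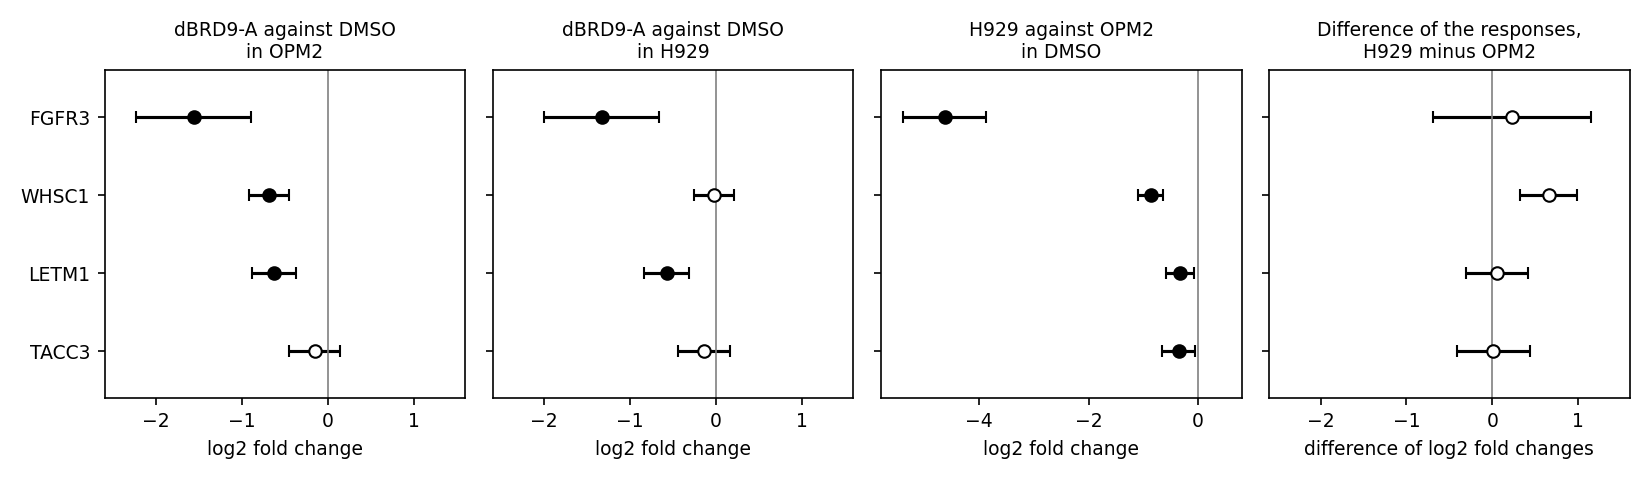
Log2 fold changes of the 4 genes with 95% intervals from the edgeR fit in the 3 comparisons, and the difference of the responses in the panel on the right; filled points have an adjusted p under 0.05. The panel for H929 against OPM2 has a wider axis, FGFR3 at -4.63 stands far from the other 3, and no difference of responses is filled.

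Divided by transcript length, the levels put FGFR3 and WHSC1 in a different order in each line. FGFR3 had 166 ± 86.7 CPM per kb with dBRD9-A and 492 ± 14.6 with DMSO in OPM2, and 7.86 ± 0.232 with dBRD9-A and 19.8 ± 1.61 with DMSO in H929. WHSC1 had 152 ± 15.1, 245 ± 17.5, 132 ± 4.94 and 134 ± 5.40 CPM per kb in the same groups. FGFR3 was thus 1.06 ± 0.479 times WHSC1 in OPM2 with dBRD9-A, where the libraries ran from 0.529 in replicate 2 to 1.45 and so fell on both sides of equal levels, and 2.01 ± 0.081 times in OPM2 with DMSO. In H929, WHSC1 was 16.8 ± 1.01 times FGFR3 with dBRD9-A and 6.80 ± 0.30 times with DMSO. TACC3 had 81.1 ± 13.2, 90.2 ± 9.72, 64.2 ± 7.44 and 70.8 ± 2.69 CPM per kb in these groups, and LETM1 had 12.1 ± 1.43, 18.8 ± 0.937, 10.0 ± 0.639 and 14.9 ± 1.59. In H929 with DMSO the order was therefore WHSC1, TACC3, FGFR3 and LETM1, and in H929 with dBRD9-A LETM1 was above FGFR3. In OPM2 with DMSO it was FGFR3, WHSC1, TACC3 and LETM1. WHSC1 over LETM1, its neighbour toward FGFR3, was 12.6 ± 0.308 with dBRD9-A and 13.1 ± 1.52 with DMSO in OPM2, and 13.2 ± 0.932 with dBRD9-A and 9.04 ± 0.753 with DMSO in H929.

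**Figure D4:**
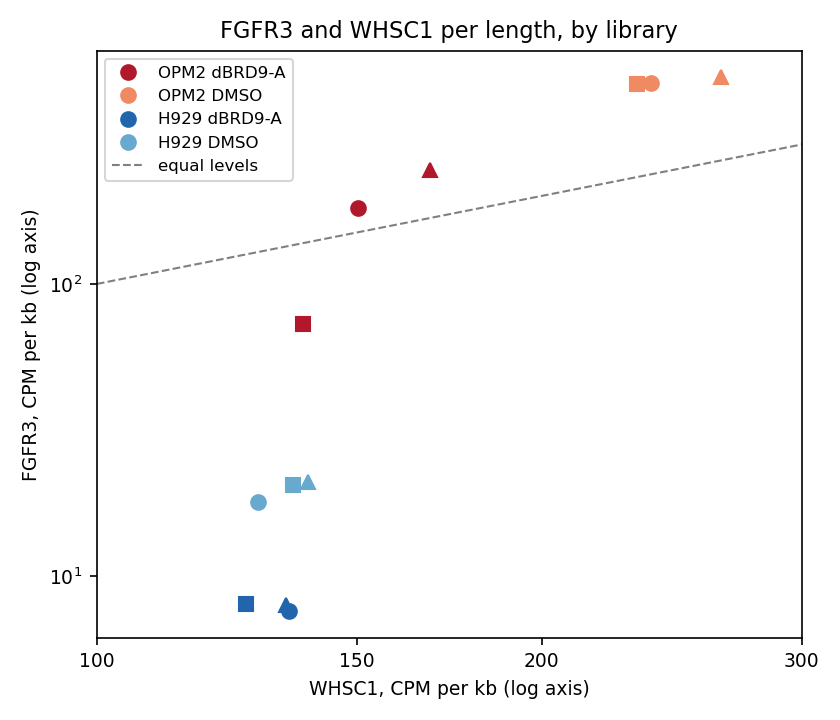
FGFR3 against WHSC1 in CPM per kb of transcript on log axes, 1 point per library, with the line of equal levels dashed and replicate numbers 1, 2 and 3 as circle, square and triangle. The OPM2 libraries lie above the line except dBRD9-A replicate 2, and all H929 libraries lie below it at like WHSC1 levels of 126 to 139 CPM per kb.

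The genes around the 4 were described as a list of 34 symbols of 4p16.3, with NELFA entered also under its older name WHSC2. Of these symbols 33 are in the files and 32 were tested. With dBRD9-A, 1 rose and 1 fell in OPM2, where 17.4% of all genes were called, and 2 rose and 2 fell in H929, where 13% were, with list medians of -0.25 in OPM2 and -0.18 in H929. Leaving OPM2 dBRD9-A replicate 2 out of the fit raised these counts to 6 and 5 in OPM2 and to 4 and 9 in H929, in a fit that called 31.7% and 35.7% of all genes, so the rise in the neighbours' counts came with a rise over all genes. SCARNA22, a small Cajal body RNA gene on the same strand as WHSC1 that overlaps no annotated WHSC1 exon, averaged 4.41 ± 0.455 CPM in OPM2 with dBRD9-A and 9.96 ± 1.68 CPM with DMSO, a log2 fold change of -1.17 (adjusted p = 0.00102). In H929 it averaged 5.39 ± 0.291 CPM with dBRD9-A and 6.18 ± 1.01 CPM with DMSO, a log2 fold change of -0.20 (adjusted p = 0.498), and the difference of the responses was not called (0.97, adjusted p = 0.128). It lies inside WHSC1, so reads of unspliced WHSC1 RNA at that place would count for it and cannot be told apart. MXD4, a repressor that dimerises with MAX, rose in OPM2 with 71.4 ± 21.4 CPM with dBRD9-A and 33.6 ± 2.93 CPM with DMSO (log2 fold change 1.09, adjusted p = 0.00312). In H929 it had 43.2 ± 3.002 CPM with dBRD9-A and 26.5 ± 2.54 CPM with DMSO (0.70, adjusted p = 0.0313), a call lost without OPM2 DMSO replicate 2 or any single H929 library (0.67 to 0.81, adjusted p of 0.0519 to 0.106).

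SLBP, which binds the stem-loop of histone mRNAs and lies beyond TACC3, fell in H929, with 81.9 ± 3.80 CPM with dBRD9-A and 134 ± 8.75 CPM with DMSO (log2 fold change -0.71, adjusted p = 0.00403). In OPM2 it had 128 ± 23.3 CPM with dBRD9-A and 166 ± 5.63 CPM with DMSO (-0.38, adjusted p = 0.0566), and leaving out replicate 2 of the treated group brought it past the threshold (-0.54, adjusted p = 0.000239). NOP14, a factor of small ribosomal subunit assembly, fell in H929, with 125 ± 18.2 CPM with dBRD9-A and 209 ± 29.5 CPM with DMSO (-0.74, adjusted p = 0.0371), a call lost without any single OPM2 DMSO library, H929 dBRD9-A replicate 1 or 2, or H929 DMSO replicate 2 or 3 (adjusted p of 0.0554 to 0.163). TMEM129, next to SLBP, had log2 fold changes of -0.54 in OPM2 and -0.40 in H929 that did not pass the test. On the far side of WHSC1, NELFA had -0.08 and -0.34, C4orf48 -0.31 and 0.12 and HAUS3 0.22 and -0.33 in OPM2 and H929, none of them called. Between the lines in DMSO, 5 neighbours were higher and 11 lower in H929, where 60.2% of all genes were called. NAT8L, beyond NELFA and C4orf48, had 0.936 ± 0.0834 CPM in H929 with DMSO and 21.4 ± 3.14 CPM in OPM2 with DMSO, while IDUA, the gene of a lysosomal enzyme, had 9.85 ± 1.24 CPM in H929 and 0.0185 ± 0.00657 CPM in OPM2.

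**Figure D5:**
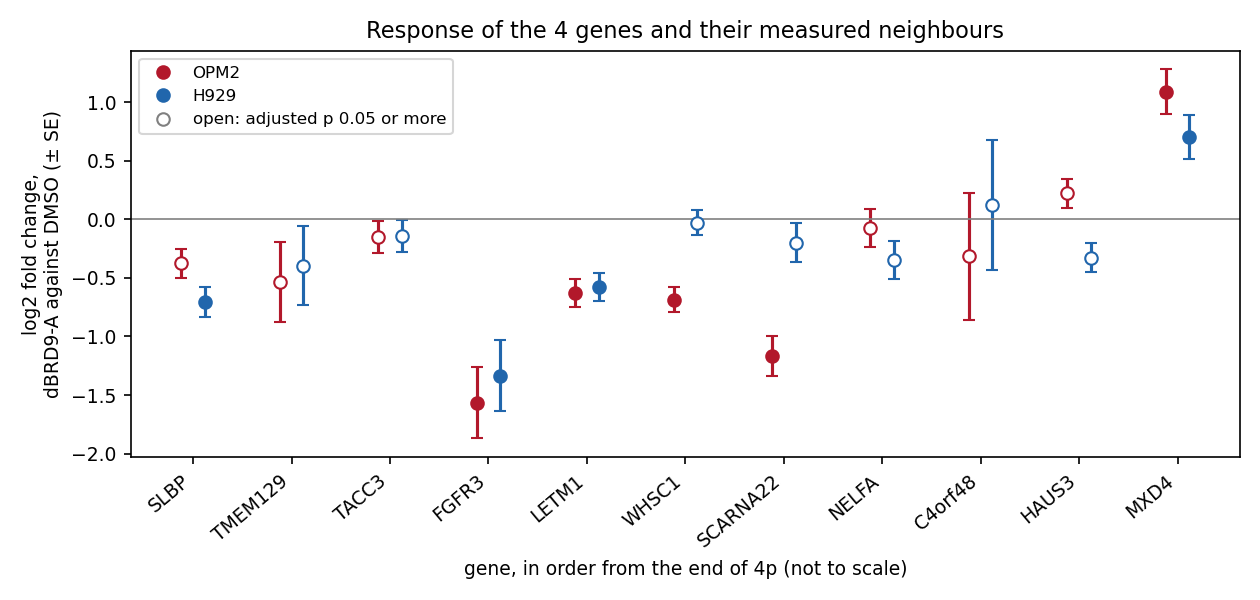
Log2 fold changes with dBRD9-A (± SE, 12 libraries in 1 fit) of the 4 genes and of SLBP, TMEM129, SCARNA22, NELFA, C4orf48, HAUS3 and MXD4, in their order from the end of 4p, not to scale; filled points have an adjusted p under 0.05. FGFR3 is the lowest of these in both lines, WHSC1 and SCARNA22 are filled in OPM2 and open in H929, and MXD4 is above 0 in both.

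The FGF receptor family was measured beside FGFR3 as a list of 20 genes with the adaptors and kinases that relay its signal, 19 of them tested. In OPM2, FGFR1 averaged 0.142 ± 0.169 CPM with dBRD9-A and 0.0766 ± 0.0445 CPM with DMSO. FGFR4 averaged 0.785 ± 0.590 CPM with dBRD9-A and 1.61 ± 0.0291 CPM with DMSO in OPM2, and 1.92 ± 0.144 CPM with dBRD9-A and 3.48 ± 0.535 CPM with DMSO in H929. In H929, FGFR1 averaged 15.5 ± 0.751 CPM with dBRD9-A and 16.9 ± 2.26 CPM with DMSO. FGFR2 rose in H929, with 3.51 ± 0.358 CPM with dBRD9-A and 1.47 ± 0.110 CPM with DMSO (log2 fold change 1.25, adjusted p = 0.00583), a call kept without any single library and lost when counts were summed over the rows of a gene (adjusted p = 0.0551). In OPM2 it averaged 0.0819 ± 0.0384 CPM with dBRD9-A and 0.0135 ± 0.0137 CPM with DMSO, a few counts per library (adjusted p = 0.0392), and that call was lost without OPM2 dBRD9-A replicate 1 or 2, OPM2 DMSO replicate 1 or 3, or replicate 3 of either H929 group (adjusted p of 0.0504 to 0.156). FGFRL1, which lacks the kinase part and lies on 4p16 as well, had 20.8 ± 1.41 CPM in H929 with DMSO and 56.0 ± 6.87 CPM in OPM2 with DMSO (-1.43, adjusted p = 2.07e-05).

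Of that list, 2 genes rose and 1 fell with dBRD9-A in OPM2, and 2 rose and none fell in H929, beside 17.4% and 13% of all genes called. At an unadjusted p under 0.05, 2 genes were lower in H929, and the share of all genes at that threshold is not given here. DESeq2, which called 24.9% of all genes in OPM2 and 19.2% in H929, called 0 lower in H929. With OPM2 dBRD9-A replicate 2 left out, the counts were 3 risen and 2 fallen in OPM2, and 5 risen and 4 fallen in H929, beside 31.7% and 35.7% of all genes. STAT3, a transcription factor that FGFR3 can activate, rose in OPM2 with 147 ± 21.8 CPM with dBRD9-A and 92.5 ± 5.02 CPM with DMSO (0.67, adjusted p = 0.00275). In H929 STAT3 had 114 ± 5.17 CPM with dBRD9-A and 84.4 ± 0.975 CPM with DMSO (0.44, adjusted p = 0.0272), a call lost without H929 dBRD9-A replicate 1 or 3 or any single H929 DMSO library (adjusted p of 0.0595 to 0.103). STAT5B, a related factor, fell in OPM2 (-0.61, adjusted p = 0.035), and its call was lost without any single OPM2 DMSO library, H929 dBRD9-A replicate 1 or 3 or H929 DMSO replicate 3 (adjusted p of up to 0.118). Of 22 FGF ligand genes, 9 were tested. With dBRD9-A edgeR called none of them in OPM2, and DESeq2 called 0. There 2 had an unadjusted p under 0.05, again without a share of all genes at that threshold. FGF13 rose in H929 (1.39, adjusted p = 0.0101). FGF9 had 0.0868 ± 0.0369 CPM in H929 with DMSO and 5.95 ± 0.271 CPM in OPM2 with DMSO. FGF17 had 0.0407 ± 0.0118 CPM in H929 and 3.52 ± 0.802 CPM in OPM2 in the same comparison.

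Genes that FGF receptors induce through ERK, including feedback inhibitors and ETS factors, were a list of 20 symbols, with 19 tested. In it IL17RD was entered also under its older name SEF. With dBRD9-A, 2 rose and 1 fell in OPM2, and 4 rose and 3 fell in H929, beside 17.4% and 13% of all genes called, with list medians of 0.12 in OPM2 and -0.03 in H929. With OPM2 dBRD9-A replicate 2 left out, the counts of risen and fallen genes were 4 and 2 in OPM2, and 6 and 6 in H929, beside 31.7% and 35.7% of all genes. ETV4, an ETS factor, fell in OPM2, with 3.33 ± 0.458 CPM with dBRD9-A and 7.18 ± 2.44 CPM with DMSO (-1.12, adjusted p = 0.00606), a call lost once the GC trend was removed (-0.78, adjusted p = 0.0655). MAF, a transcription factor gene that is itself a translocation target in other myelomas, rose in OPM2, with 135 ± 38.4 CPM with dBRD9-A and 55.0 ± 7.95 CPM with DMSO (1.30, adjusted p = 0.00152), and PHLDA1 rose as well (1.24, adjusted p = 0.00948). In H929, CCND2, the gene of cyclin D2, fell, with 5.83 ± 1.72 CPM with dBRD9-A and 28.2 ± 9.07 CPM with DMSO (-2.27, adjusted p = 0.00125), and ETV1 rose (1.84, adjusted p = 0.0111), as did the feedback inhibitor IL17RD (1.27, adjusted p = 0.017). The ETV1 call was lost without H929 dBRD9-A replicate 1 (adjusted p = 0.0505), and that of IL17RD without this library or H929 DMSO replicate 2 or 3 (adjusted p of 0.0709 to 0.0972). The called genes were thus not of 1 direction in either line. Between the lines in DMSO, 11 of the 19 were higher and 7 lower in H929, beside 60.2% of all genes called, and the median of the list was 1.71.

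The other writers, erasers and readers of methyl groups on lysine 36 of histone H3 were a list of 23, all tested, which also holds EZH2, a methyltransferase for lysine 27. With dBRD9-A none rose and 2 fell in OPM2, and none rose and only EZH2 fell in H929, beside 17.4% and 13% of all genes called. At an unadjusted p under 0.05, 3 were higher and 3 lower in OPM2, and 0 higher and 4 lower in H929. The share of all genes at that threshold is not given here. DESeq2 called 2 higher and 2 lower in OPM2, and 0 higher and 2 lower in H929, beside 24.9% and 19.2% of all genes. With OPM2 dBRD9-A replicate 2 left out, the counts of risen and fallen genes were 0 and 3 in OPM2, and 2 and 4 in H929, beside 31.7% and 35.7% of all genes. SETMAR, a protein with a methyltransferase part, fell in OPM2, with 9.60 ± 1.42 CPM with dBRD9-A and 14.8 ± 0.252 CPM with DMSO (-0.63, adjusted p = 0.00899). KDM2B, a demethylase, fell in OPM2, with 53.2 ± 10.9 CPM with dBRD9-A and 81.9 ± 2.10 CPM with DMSO (-0.62, adjusted p = 0.0169), a call lost without any single OPM2 DMSO library (adjusted p of 0.0502 to 0.0645). EZH2 fell in H929, with 92.2 ± 1.64 CPM with dBRD9-A and 118 ± 4.93 CPM with DMSO (-0.35, adjusted p = 0.0391), a call lost without any single OPM2 DMSO or H929 library (adjusted p of 0.0555 to 0.162). NSD1, a paralogue of WHSC1, was higher in H929, with 205 ± 22.4 CPM in H929 with DMSO and 82.9 ± 3.16 CPM in OPM2 with DMSO (1.30, adjusted p = 5.91e-07), the opposite direction to WHSC1.

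The last lists were built around LETM1 and TACC3 and are read beside the same shares of all genes, 17.4% in OPM2 and 13% in H929. Of 14 genes of the LETM1 family and mitochondrial ion transport, BCS1L, which acts in the assembly of respiratory complex III, fell in OPM2 (-0.78, adjusted p = 0.0142; 0.0596 without OPM2 DMSO replicate 2) and VDAC1, a channel of the outer mitochondrial membrane, fell in H929 (-0.53, adjusted p = 0.036). No other gene of the list was called with dBRD9-A, and the VDAC1 call was lost without any single OPM2 DMSO or H929 library (adjusted p of 0.0531 to 0.145). With OPM2 dBRD9-A replicate 2 left out, 6 genes fell and 0 rose in OPM2, and 3 fell and 2 rose in H929, beside 31.7% and 35.7% of all genes. Of 14 genes of the TACC family and its spindle partners, edgeR called none in OPM2, and DESeq2, which called 24.9% of all genes there, called 1. In OPM2, 3 had an unadjusted p under 0.05, all higher, without a share of all genes at that threshold. Leaving out OPM2 dBRD9-A replicate 2 gave 2 risen genes there and, in H929, 3 risen and 1 fallen. TACC2, a paralogue of TACC3, rose in H929, at 0.847 ± 0.326 CPM with dBRD9-A and 0.236 ± 0.149 CPM with DMSO (1.82, adjusted p = 0.0215), and its call was lost without H929 dBRD9-A replicate 1 or 2 or H929 DMSO replicate 1 or 2 (adjusted p of up to 0.0877).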

How the data were processed

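Poly(A)-selected, stranded RNA-seq libraries were analysed, 12 in 4 groups. Per the submitters' processing notes the authors used STAR, featureCounts and a build given as both GRCh37 and hg19; versions and the strand setting are not given in the sources used here. The deposited count is a whole number of reads per RefSeq row, not normalised. The deposited FPKM was used to work out each row's length and for nothing else. The deposited TPM was not used further.

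Each gene was represented by its row with the highest mean count. The test on these counts was that of edgeR 4.0.16 in R 4.3.3 (quasi-likelihood, TMM factors, filterByExpr, which left 16408 genes, 1 mean per group over 12 libraries, 8 residual degrees of freedom). Adjustment was by Benjamini-Hochberg over all genes tested, and an adjusted p under 0.05 was called. CPM values are TMM-scaled, and a log2 CPM uses a prior count of 0.25. The fit was tested on simulated data. GC content was found for 98.39% of genes tested, from GENCODE v29 transcripts.

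The members and gene lists were chosen with earlier results of these data known. Named genes were the 4 members, all WHSC1 rows, up to 3 called genes per list and comparison with the largest change, the nearest measured neighbours, and the 3 nearest patterns per member. SCARNA22 in the comparisons in H929, and the FGF receptor levels, were chosen after their values were seen. Alternatives were RLE factors, no scaling, DESeq2 1.42.0, limma-voom (limma 3.58.1) with library weights, 2 other low-count filters, the groups of a comparison alone, each library left out, a replicate block, removal of a GC trend and the sum over rows. Removal of the GC trend together with OPM2 dBRD9-A replicate 2 was added after the data were seen. The labels do not tell whether the libraries of a group come from different cultures; if not, a p-value reflects technical spread alone. Counting error depends on the counts of each gene, which were 1387 to 168302 per library for the 4 genes. It was not compared with this spread.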

Additional observations from a re-analysis of the deposited data

How the results depend on the processing

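For the 4 genes, the calls of WHSC1 and LETM1 in OPM2 and of FGFR3 and WHSC1 between the lines held under every alternative run, though LETM1 in OPM2 moved to -0.38 with the GC trend removed. FGFR3 in OPM2 was called no longer with the groups fitted alone (-1.57 ± 0.41, SE, adjusted p 0.0756, edgeR). Its fold change was like that of the main fit (-1.56 ± 0.31, SE), and the cause of the larger SE was not tested. The replicate numbers did not pair the libraries (same-number correlations of deviations of 0.255, -0.030 and -0.060 in OPM2 and -0.035, -0.197 and -0.118 in H929). In H929 the higher correlations joined unlike numbers: dBRD9-A replicate 1 with DMSO replicate 3 (0.551), 2 with 1 (0.483) and 3 with 2 (0.654). The replicate block used here joins libraries of the same number, and a block on these other pairs was not run. With the replicate block, LETM1 (-0.34, adjusted p 0.0656) and TACC3 (-0.34, adjusted p 0.0542) between the lines were called no longer, and genes called fell to 1729 in OPM2, 1112 in H929 and 26 for the difference, against 2857, 2134 and 95. The WHSC1 difference of responses became called with DESeq2 (0.67), limma-voom (0.61), the GC trend removed (0.62), OPM2 dBRD9-A replicate 2 left out (0.64) and both of these together (0.60). It stayed uncalled in 18 of 23 alternatives, with an adjusted p of up to 0.307.

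Values near 0 changed sign. TACC3 in OPM2 was 0.11 with the GC trend removed, 0.11 with the block as well and 0.0245 with replicate 2 left out. WHSC1 in H929 was 0.0119 with RLE factors, 0.0119 with DESeq2, 0.0122 with the 1 CPM filter, 0.0130 summed over rows, 0.0662 without scaling, and 0.0330, 0.0322 and 0.0324 with the GC trend removed alone, with the block and with replicate 2 left out. Differences of responses were -0.0369 (limma-voom) and -0.0782 (GC trend, replicate 2 left out) for FGFR3, -0.12, -0.12 and -0.00353 for LETM1 and -0.18, -0.18 and -0.10 for TACC3 in these 3 fits, and -0.13 for TACC3 with limma-voom.

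Leaving out each library gave -1.36 to -1.25 for FGFR3, -0.0304 to 0.0393 for WHSC1 and -0.61 to -0.47 for LETM1 in H929, -0.43 to -0.29 for LETM1 and -0.41 to -0.26 for TACC3 between the lines, and -0.0803 to 0.62 for FGFR3, 0.60 to 0.75 for WHSC1 and -0.0726 to 0.13 for TACC3 as differences of responses. Neighbours changed sign too. C4orf48 was 0.10 with limma-voom, 0.0574 with the GC trend removed, and 0.32 with replicate 2 left out as well in OPM2, NELFA there was 0.0415, 0.26 and 0.15, and 0.25 with the block, and the difference of responses was -0.0217 for C4orf48 (limma-voom) and -0.15, -0.0222 and -0.20 for TMEM129. With libraries left out, C4orf48 ran from -0.65 to 0.15 in OPM2, -0.18 to 0.33 in H929 and -0.00139 to 0.77 as a difference, NELFA in OPM2 from -0.23 to 0.0829 and TMEM129 as a difference from -0.20 to 0.41.

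With the OPM2 groups fitted alone, a fit that called 871 of 14956 genes, the OPM2 calls of MXD4, STAT3, STAT5B, PHLDA1, ETV4, SETMAR, KDM2B, BCS1L and JAG2 were also lost (adjusted p of 0.0525 to 0.163). Other settings ended the calls of FGFR2 (DESeq2, no filter) and STAT5B (no scaling) in OPM2, and of NOP14, VDAC1, EZH2 and FGFR2 in H929. In H929, MXD4 stayed called in 16, STAT3 in 18, JAG2 in 17, KIAA0125 in 19, IL17RD in 20 and TACC2 in 19 of 24 alternatives. For these genes the libraries named are not the only settings that ended the call.

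Genes called ranged over alternatives from 871 to 7243 in OPM2, 812 to 6702 in H929, 8591 to 12808 between the lines and 26 to 882 for the difference. Without scaling, the median gene between the lines moved to -0.07, against 0.05 with TMM. The difference of responses has no fit with the groups of a comparison alone.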

Other observations

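By the root mean square difference of centred log2 CPM over the 12 libraries, among 11467 genes with a mean of at least 1 log2 CPM, the genes nearest to FGFR3 were NKD2 (0.443), KLF15 (0.505) and TMEFF1 (0.551), where the median gene was at 2.38. The nearest to WHSC1 were GLDC (0.123), EARS2 (0.124) and ARF1 (0.137), with a median of 0.534. LETM1 was nearest to ERCC1 (0.0568), NUP93 (0.0688) and UCK2 (0.0760), also with a median of 0.534. TACC3 was nearest to PILRB (0.0537), to STAG3L5P-PVRIG2P-PILRB (0.0833), a readthrough gene that shares reads with PILRB, and to HPS4 (0.0863), with a median of 0.466. These distances are descriptions over libraries that share lines and depths.

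On the other side of the translocation, 12 genes near the end of 14q32 were listed and 11 tested. KIAA0125, which lies within the immunoglobulin heavy-chain locus, rose with dBRD9-A in both lines, with 564 ± 47.8 CPM with dBRD9-A and 365 ± 3.30 CPM with DMSO in OPM2 (log2 fold change 0.63, adjusted p = 0.00284, edgeR). In H929 it had 603 ± 64.8 CPM with dBRD9-A and 448 ± 22.3 CPM with DMSO (0.43, adjusted p = 0.0232), a call lost without H929 dBRD9-A replicate 1 or 3 or H929 DMSO replicate 1 or 2 (adjusted p of 0.0568 to 0.0955). JAG2, a Notch ligand gene nearby, fell in both lines, with log2 fold changes of -1.05 in OPM2 (adjusted p = 0.0271) and -1.11 in H929 (adjusted p = 0.0248). Its calls were lost without OPM2 dBRD9-A replicate 1 or any single OPM2 DMSO library, and without any single H929 library (adjusted p of 0.0516 to 0.140). Of the 11 genes, 1 rose and 1 fell in each line, beside 17.4% of all genes called in OPM2 and 13% in H929, and leaving out OPM2 dBRD9-A replicate 2 gave 4 risen and 1 fallen in OPM2, and 3 risen and 2 fallen in H929, beside 31.7% and 35.7% of all genes.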
